A study of Saccharomyces cerevisiae with 4 samples.

Results

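MTC4, HUL5, MRS2, AAN1 and SWC3 are 5 budding yeast genes in which many capped RNA 5′ ends lay inside the coding sequence when the histone methyltransferase Set2 was missing. They were chosen for exactly that pattern, with many internal 5′ ends in both set2Δ libraries and few in BY4741, and no numerical limit was set. The internal counts of the chosen genes are therefore given as a description, without a test. The 5 genes are part of 6002 nuclear protein-coding genes, of which the 5710 that span 300 bp or more were counted. Among these, 4726 had at least 10 internal counts over the 4 libraries. All 5 genes were among these 4726, and all 5 also reached 10 counts at their annotated starts. The study mapped transcript starts by ligating a barcoded oligonucleotide to decapped 5′ ends, enriching poly(A) RNA, and sequencing from that end. BY4741 (MATa his3Δ1 leu2Δ0 ura3Δ0 met15Δ0), a laboratory strain, was compared with ∆set2::kanMX4 in the same background, in which the drug resistance cassette kanMX4 replaces SET2. Each strain gave 2 libraries, from cultures in mid-log phase in rich glucose medium (YPD). All cultures shared the auxotrophic deletions of the parent. A single deletion genotype is named for the mutant, and no second, independent deletion is described.

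Set2 travels with elongating RNA polymerase II and methylates histone H3 within transcribed genes. The mark activates the deacetylase complex Rpd3S, which keeps coding regions poorly acetylated, and without it transcription can start at sites inside genes. RNA polymerase II of budding yeast scans for a start and prefers a pyrimidine followed by a purine, the purine being the first base of the RNA. A ribosome that scans such an RNA from its cap usually begins at the first ATG, so the frame of that ATG sets which peptide a shortened transcript could encode.

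HUL5 encodes a ubiquitin ligase of the HECT family that extends ubiquitin chains at the proteasome. MRS2 encodes a magnesium channel of the inner mitochondrial membrane. SWC3 encodes a subunit of the SWR1 complex, which places the histone variant H2A.Z in chromatin. AAN1 is annotated as acting on actin cable stability and on branched-chain amino acid metabolism. MTC4 has no known molecular function and was named for a genetic interaction with the telomere gene CDC13.

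In the R64 assembly, MTC4 (YBR255W) occupies chrII:724456-726540 on the plus strand, with a coding length of 2085 bp. HUL5 (YGL141W) occupies chrVII:238353-241085 on the plus strand, with 2733 bp. MRS2 (YOR334W) lies at chrXV:944596-946008, plus strand, 1413 bp. AAN1 (YKL075C) lies at chrXI:292956-294308 on the minus strand and measures 1353 bp. SWC3 (YAL011W) spans chrI:132199-134076 on the plus strand, 1878 bp. The median coding length of the 4726 genes was 1381.5 bp, so AAN1 was shorter than that median and the other 4 genes were longer. In each case the next gene downstream lies on the opposite strand, an arrangement shared by 53.5% of 4725 genes. Every 43-base sequence that begins in the internal part of the 5 genes occurs once in the genome, so no exact copy of that length lies elsewhere. Copies with mismatches were not searched for.

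Bases are numbered here from the A of the start codon, which is base 1, and the internal window is the gene without its first 200 bp. The 150 bp of this window with the most counts in set2Δ replicate 1 is called the cluster. The 5 clusters are printed because all of the strongly used internal starts lie in them. Capitals mark the first base of RNAs with at least 5 counts in both set2Δ libraries, called used positions, and each sequence reads from 5′ to 3′ on the strand of the gene. The clusters are chrII:725585-725734 (MTC4, bases 1130 to 1279), chrVII:239636-239785 (HUL5, 1284 to 1433), chrXV:945680-945829 (MRS2, 1085 to 1234), chrXI:293325-293474 (AAN1, minus strand, 835 to 984) and chrI:133311-133460 (SWC3, 1113 to 1262).
MTC4: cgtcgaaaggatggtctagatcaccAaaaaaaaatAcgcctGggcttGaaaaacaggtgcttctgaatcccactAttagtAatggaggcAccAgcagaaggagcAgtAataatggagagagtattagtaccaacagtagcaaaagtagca
HUL5: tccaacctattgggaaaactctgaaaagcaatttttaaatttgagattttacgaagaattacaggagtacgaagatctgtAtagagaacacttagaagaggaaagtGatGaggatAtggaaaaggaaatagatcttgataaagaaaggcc
MRS2: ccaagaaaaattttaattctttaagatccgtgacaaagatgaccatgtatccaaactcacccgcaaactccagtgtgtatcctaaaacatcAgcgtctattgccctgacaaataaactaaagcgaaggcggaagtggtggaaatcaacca
AAN1: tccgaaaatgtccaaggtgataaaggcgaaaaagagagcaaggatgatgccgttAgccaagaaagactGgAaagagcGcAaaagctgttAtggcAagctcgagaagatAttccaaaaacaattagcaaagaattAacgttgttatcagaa
SWC3: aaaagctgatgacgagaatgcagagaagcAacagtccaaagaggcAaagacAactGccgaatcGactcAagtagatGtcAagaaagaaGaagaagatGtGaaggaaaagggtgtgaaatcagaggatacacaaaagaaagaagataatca
Each capital but 2 is an A or G that follows a C or T. The exceptions are base 905 of AAN1, an A after a G, and base 1201 of SWC3, a G after an A.

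The BY4741 libraries held 452888 and 375442 counts and the set2Δ libraries 1267578 and 1099482, a ratio of 2.86 between the strain means. A count of 0 in BY4741 therefore weighs less than one in set2Δ, and levels below are scaled to library size as counts per 1e6 counts (CPM). In the SET2 gene body 9 and 2 counts were found in BY4741 and 0 and 1 in set2Δ. LEU2, URA3 and MET17 (MET15) bodies had 0 counts in every library, and HIS3, of which his3Δ1 removes only a portion, had 3 to 15. The a-specific genes STE2, STE6, BAR1, MFA1 and MFA2 had counts in all libraries. Of the alpha-specific genes, STE3 and MF(ALPHA)1 had at most 3 counts in their gene bodies and MF(ALPHA)2 had 1 and 1 in BY4741 against 32 and 29 in set2Δ. With 250 bp upstream, MF(ALPHA)1 had 2 and 2 in BY4741 against 4 and 12 in set2Δ and STE3 5 and 1 against 0 and 0, and the part of this in the results was not tested. Counts at single positions also had an excess at 16: in set2Δ replicate 1 there were 5855 positions with 16 counts, against 3663 with 15 and 3097 with 17. The same excess was present in the other 3 libraries, where 1286, 1018 and 4326 positions held 16 counts. In set2Δ replicate 1 the number fell to 1523 positions at 18 counts and 824 at 19.

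Inside SWC3, BY4741 gave 9 and 7 sense counts, and set2Δ gave 255 and 196. This was 19.3 ± 0.868 CPM in BY4741 and 190 ± 16.2 CPM in set2Δ (SD, n = 2 libraries each), a ratio of 9.85. The groups were far apart, with the lower set2Δ library at 178 CPM and the higher BY4741 library at 19.9 CPM. Inside MTC4, counts were 7 and 4 in BY4741 and 198 and 191 in set2Δ. Levels were 13.1 ± 3.40 and 165 ± 12.4 CPM (SD, n = 2), a ratio of 12.6, the highest of the 4 genes for which a ratio could be formed.

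Inside AAN1, BY4741 gave 17 and 5 counts, and set2Δ gave 212 and 184. The set2Δ libraries agreed closely, at 167 ± 0.0731 CPM, whereas the BY4741 libraries were at 37.5 and 13.3 CPM, so that the ratio of 6.58 rested on which BY4741 library is taken as the reference. In HUL5 the counts were 7 and 5 in BY4741 and 168 and 137 in set2Δ, or 14.4 ± 1.51 and 129 ± 5.61 CPM (SD, n = 2), a ratio of 8.94. MRS2 was the weakest in set2Δ, with 40 and 49 counts (38.1 ± 9.20 CPM), and had 0 in both BY4741 libraries. Taking 3 counts in the 2 BY4741 libraries together as the most that could have been missed, its level in set2Δ was at least 10.4-fold higher. Counting intervals and floors cover counting error only. The strains did not overlap in any of the 5 genes, as the choice of genes required.

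**Figure D1:**
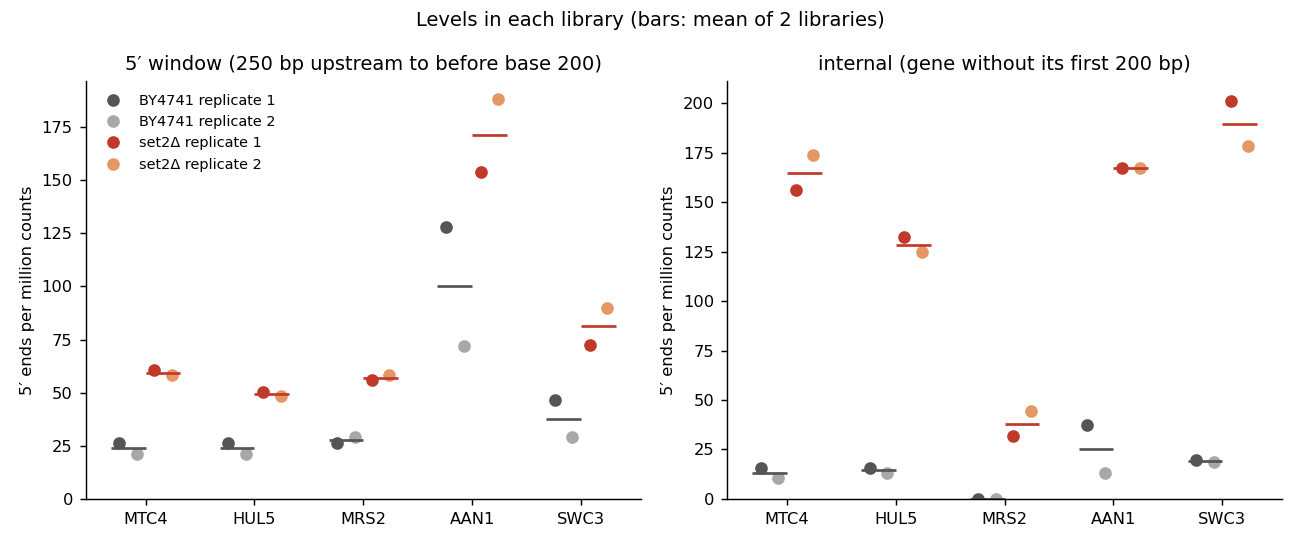
5′ ends in CPM in the 5′ window (left) and inside the gene (right) for the 5 genes. Points are the 4 libraries and bars the mean of 2 libraries per strain; all set2Δ points lie above all BY4741 points of the same gene in both windows, and MRS2 sits at 0 inside the gene in BY4741.

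The counts come from whole cultures, so many cells with a little internal RNA and a few cells with much of it cannot be told apart. Fitted with edgeR over all 4726 genes, the log2 fold changes (set2Δ over BY4741) of the internal counts were 2.95 (SE 0.36) for MTC4, 2.62 (SE 0.33) for SWC3, 2.47 (SE 0.36) for HUL5 and 1.98 (SE 0.31) for AAN1. The fitted value of MRS2 depends on the prior count and is no bound. In that fit 25% of the genes were called higher in set2Δ at an adjusted p below 0.1, a share from which nothing is read for genes chosen on the same contrast. The median over all genes was 0.15. Scaled to library totals instead, the median over all genes was 0.83, and the values became 3.62 for MTC4, 3.29 for SWC3, 3.14 for HUL5 and 2.65 for AAN1. With distinct positions counted in place of counts, the values were lower, at 1.98 for HUL5, 1.72 for MTC4, 1.26 for SWC3 and 0.99 for AAN1, and their order differed. The value of AAN1 moved most with single libraries: leaving out BY4741 replicate 1 gave 2.87, and leaving out BY4741 replicate 2 gave 1.48.

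Ranked by their internal level in set2Δ, SWC3 was at rank 73, AAN1 at 106, MTC4 at 112, HUL5 at 202 and MRS2 at 1383 of the 4726 genes, whose median was 20.7 CPM. MRS2 thus had a moderate number of internal ends in set2Δ and the other 4 genes had very many.

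The share of sense 5′ ends that lay inside the gene, out of those inside and in the 5′ window (250 bp upstream of the start codon and the gene before its base 200), sets both windows of 1 library against each other and needs no scaling between libraries. In the set2Δ libraries AAN1 and SWC3 hold positions near the excess at 16 counts in both windows and HUL5 in the internal one, and their part in the share was not tested. For MTC4, BY4741 gave 36.8% and 33.3%, and set2Δ gave 72.0% and 74.9%. In HUL5 it was 36.8% and 38.5% against 72.4% and 72.1%. In SWC3 it was 30.0% and 38.9% against 73.5% and 66.4%. In these 3 genes internal ends thus outnumbered the ends at the annotated start in set2Δ and were the minority in BY4741.

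For AAN1, BY4741 gave 22.7% and 15.6%, and set2Δ gave 52.1% and 47.1%. In MRS2 it was 0% and 0% in BY4741, with Wilson 95% upper bounds of 24.2% and 25.9%, and 36.0% and 43.4% in set2Δ. Summed over the 5 genes the share was 25.1 ± 0.981% in BY4741 and 62.2 ± 1.96% in set2Δ (SD, n = 2), a difference of 37.1 percentage points. For comparison, the median share over all 4726 genes was 13.2% in BY4741 and 17.9% in set2Δ. Many genes had a higher share in set2Δ than these 5. Ranked by the share pooled over the set2Δ libraries, MTC4 was at 480, HUL5 at 500, SWC3 at 533, AAN1 at 964 and MRS2 at 1242. With distinct positions counted in place of counts, the difference over the 5 genes was 29.8 points.

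**Figure D2:**
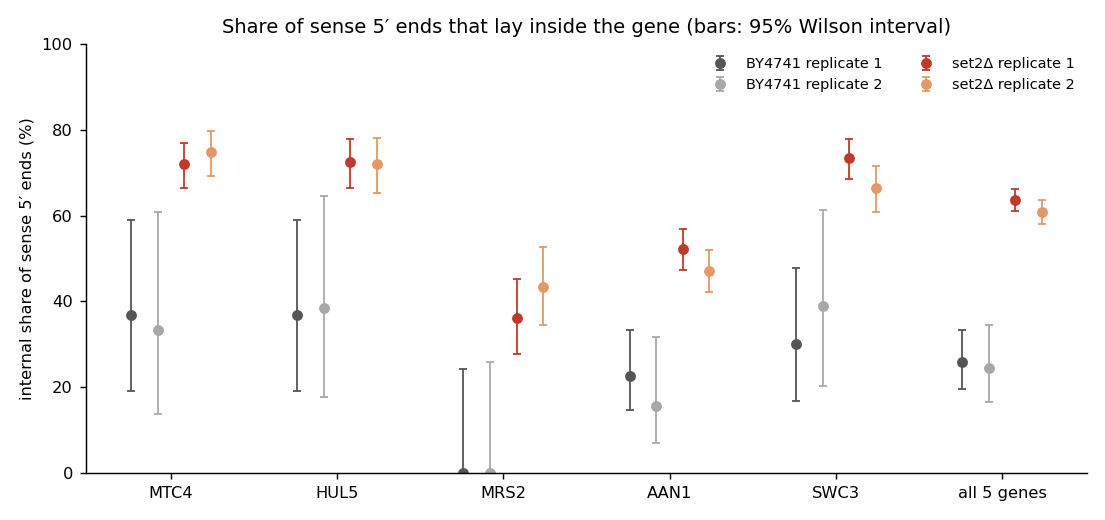
Internal share of sense 5′ ends (%) for each gene and for the 5 genes summed, by library, with Wilson 95% intervals that cover counting error only. In MTC4, HUL5 and SWC3 both set2Δ libraries are above 65% and both BY4741 libraries below 40%; the BY4741 intervals are wide because they rest on 11 to 75 counts per gene and library.

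Along each gene, the internal ends of set2Δ formed a narrow peak. The cluster, placed on set2Δ replicate 1, was scored in replicate 2, which did not place it. There it held 77.5% of the internal counts of MTC4, 49.6% of those of HUL5, 81.6% of those of MRS2, 79.3% of those of AAN1 and 80.1% of those of SWC3. The clusters are 5.92% to 13% of the internal window. Among 1375 other genes with at least 40 internal counts in each set2Δ library, the best 150 bp held a median of 40.9% in replicate 2, with quartiles of 27.0% and 58.9%. MRS2, SWC3, AAN1 and MTC4 were at ranks 81, 95, 102 and 117 of the 1380 genes, whereas HUL5 was at rank 521.

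The median base of the internal counts was nearly the same in the 2 set2Δ libraries. It was 1168 and 1168 in SWC3, 914 and 920 in AAN1, 1393 and 1399 in HUL5, 1176 and 1163 in MRS2 and 1204 and 1177 in MTC4. The centre of the cluster lay at 49.7% of the coding length in HUL5, 57.8% in MTC4, 63.2% in SWC3, 67.2% in AAN1 and 82.1% in MRS2, against a median of 72.6% for the other 1375 genes.

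HUL5 was the least focused. With the internal window divided into 3 equal parts, its last part held 29.2% and 33.6% of the internal set2Δ counts, and its middle part 63.1% and 60.6%. In SWC3 the last part held 2.35% and 3.06%, and 12.5% and 13.3% lay in the first part, upstream of the cluster. In MRS2 97.5% and 89.8% lay in the last part.

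The few internal counts of BY4741 were partly in the same places. The clusters held 4 and 2 of the 7 and 4 internal counts of MTC4 in BY4741, 4 and 3 of 7 and 5 in HUL5, 9 and 2 of 17 and 5 in AAN1, and 3 and 3 of 9 and 7 in SWC3. Of the 48 positions with at least 5 counts in set2Δ replicate 1, 47 were seen in set2Δ replicate 2 and 14 in BY4741. These counts are too small to say more of where BY4741 transcripts began.

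**Figure D3:**
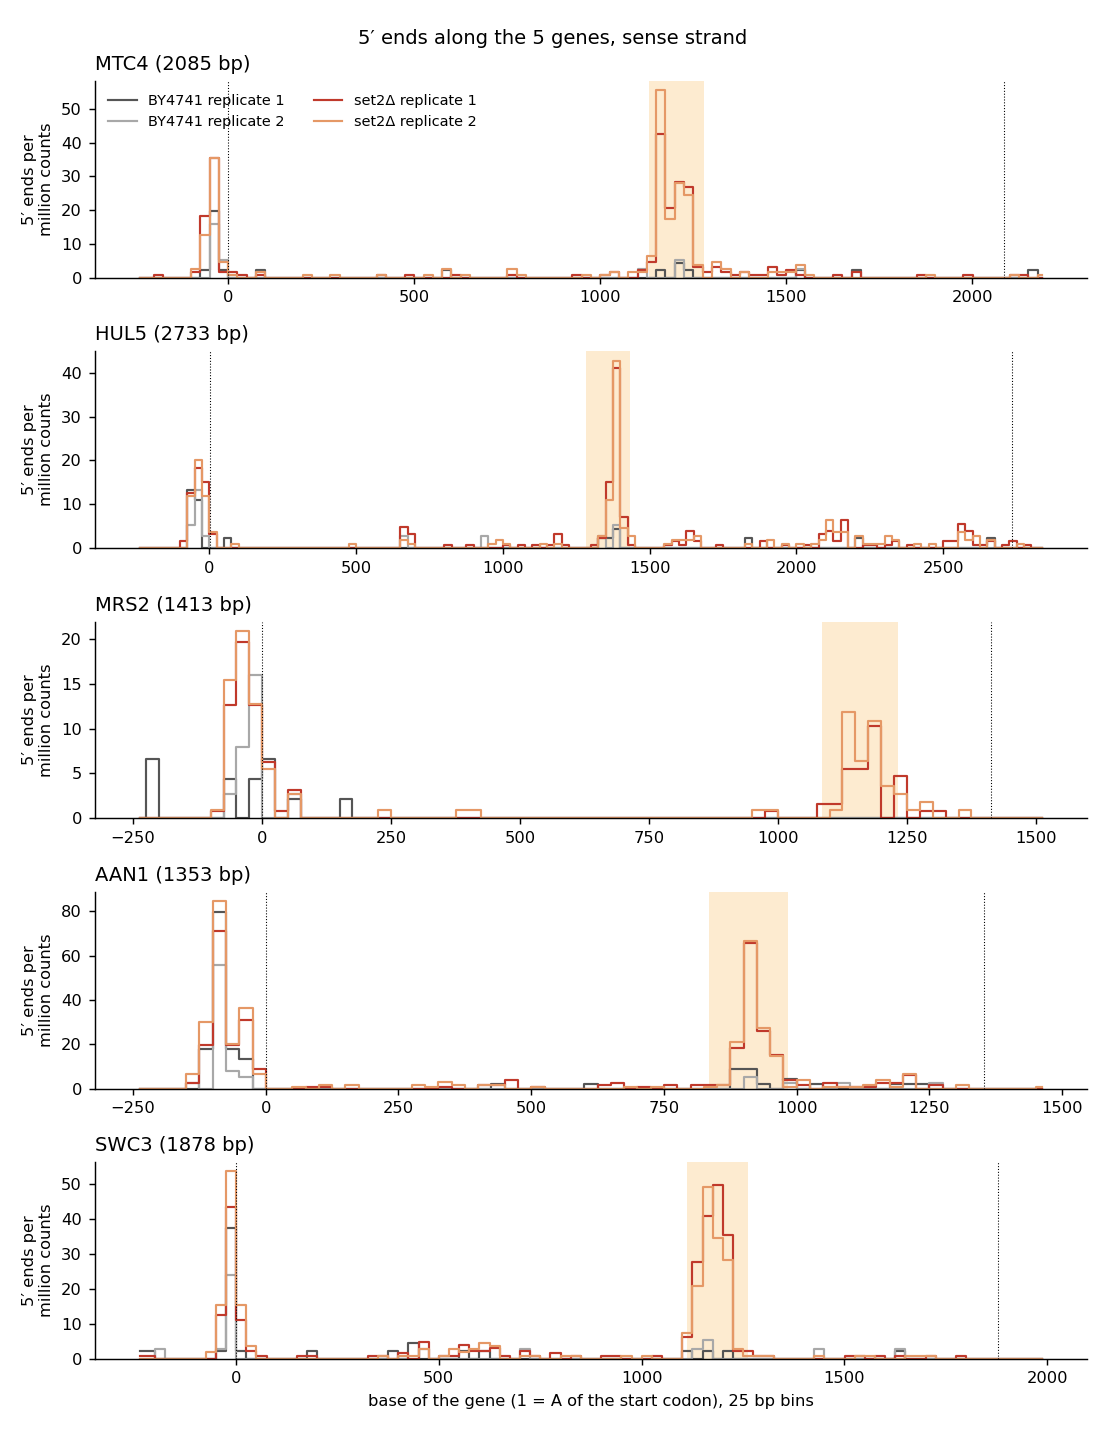
Sense 5′ ends in CPM in 25 bp bins along the 5 genes, 1 line per library; dotted lines mark the start and end of the coding sequence and shading the 150 bp cluster. Beside a peak at the start, both set2Δ libraries have an internal peak in the shaded window of each gene, with HUL5 also showing smaller peaks toward its end, while BY4741 peaks at the annotated start.

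The number of positions that held internal ends follows the counts that chose the genes and is given as a description. Thinned in expectation to the total of the shallowest library, which leaves the internal counts of the strains unequal, MTC4 had 35.6 and 38.7 internal positions in the set2Δ libraries and 5.80 and 4.0 in the BY4741 libraries. SWC3 had 40.6 and 35.2 against 7.46 and 7.0, and AAN1 had 37.9 and 36.5 against 12.7 and 5.0. HUL5 had 35.3 and 33.6 against 5.12 and 4.0, and MRS2 9.06 and 12.5 against 0 and 0. Across the positions seen in either set2Δ library, the counts of the 2 libraries had a Pearson r of 0.91 in AAN1 (126 positions), 0.89 in SWC3 (128), 0.86 in MTC4 (119), 0.80 in HUL5 (137) and 0.68 in MRS2 (43). Positions of a gene share its sequence and the depth of the library, and the values are given as a description.

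In SWC3, bases 1164 and 1168 were tied as the most used internal positions, each with 17 and 16 counts in set2Δ, against 0 and 1 and 0 and 0 in BY4741. That of HUL5, base 1390, had 2 and 0 in BY4741 and 15 and 17 in set2Δ. In AAN1, bases 914 and 924 were tied at 16 and 16 in set2Δ, against 2 and 1 and 1 and 1 in BY4741. These counts lie at the excess near 16 described above, so the use of the strongest positions relative to weaker ones is not resolved by them. The most used position of MTC4, base 1219, had 1 and 1 in BY4741 and 13 and 11 in set2Δ, and that of MRS2, base 1176, had 0 and 0 in BY4741 and 8 and 11 in set2Δ.

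**Figure D4:**
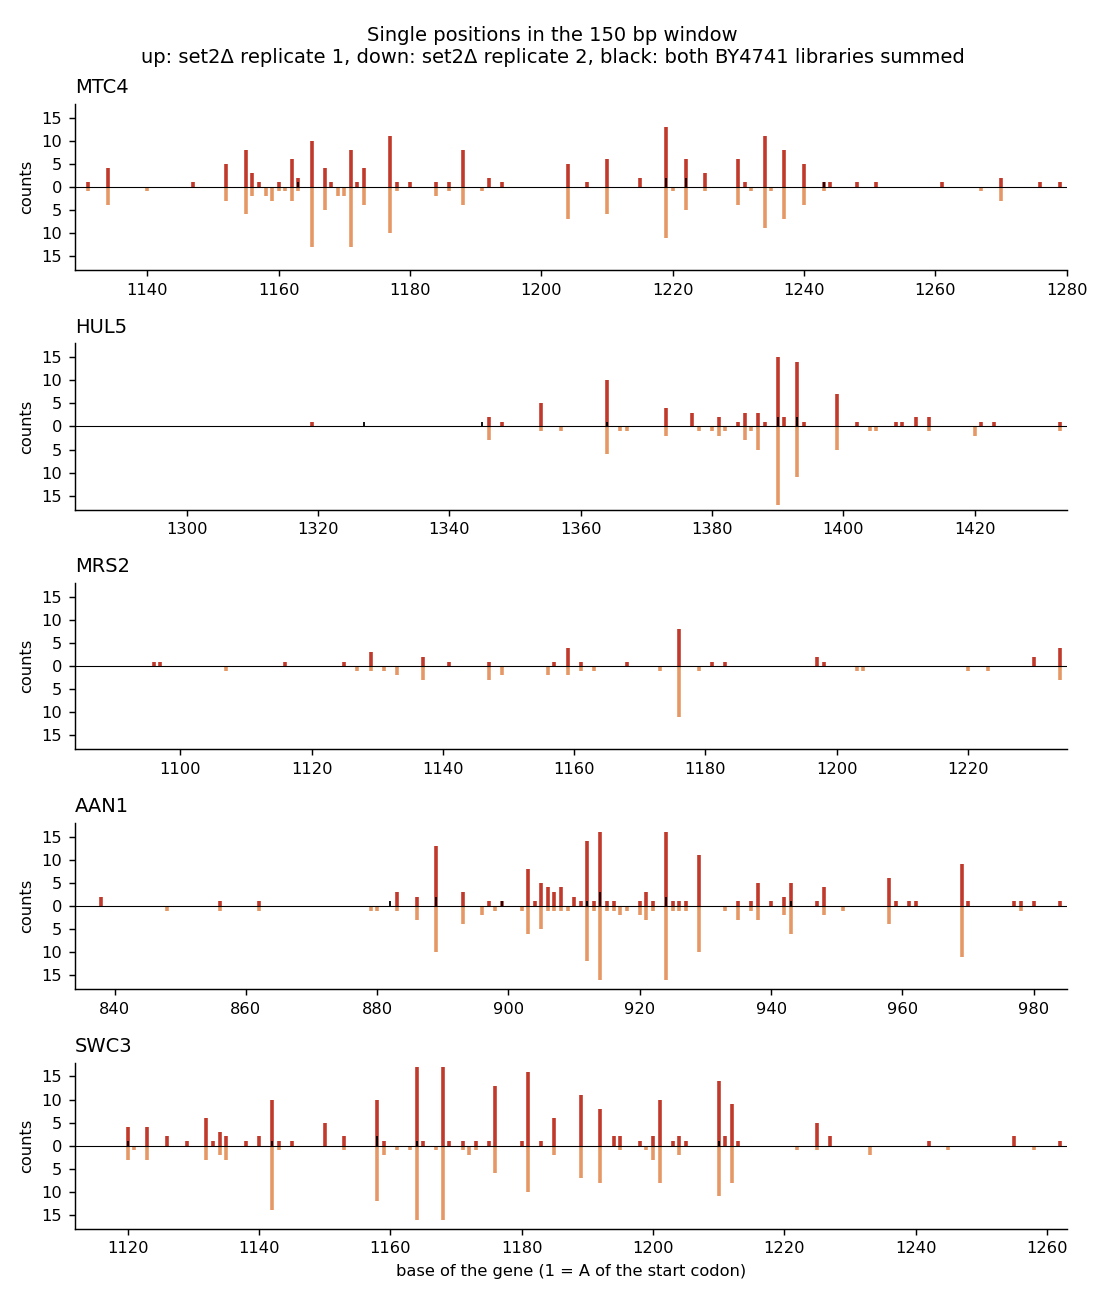
Counts at single positions in the cluster of each gene, with set2Δ replicate 1 drawn upward, set2Δ replicate 2 downward and the sum of both BY4741 libraries in black. The same bases stand out in both set2Δ libraries, and no position of these genes exceeds 17 counts.

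There were 35 used positions in the internal windows, 11 in SWC3, 10 in MTC4, 9 in AAN1, 4 in HUL5 and 1 in MRS2, and all 35 lay in the clusters. At 21 of them neither BY4741 library had a count. In total 33 of the 35 (94.3%, Wilson 95% interval 81.4% to 98.4%) had a pyrimidine before a purine, where 22.1% of all bases in these windows do. The share was 85.8% over 2805 used positions in 958 other genes. Weighted by counts, 75.1% of the 1630 internal set2Δ ends in the 5 genes began at such a base, and 52.5% of the 61 internal BY4741 ends did. In the other genes these shares were 56.8% and 33.7%. The first base of the RNA was A at 23 used positions and G at 12. Used positions of a cluster are neighbours and not independent of each other, which the Wilson interval does not cover.

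An A lies 8 bases upstream of many yeast start sites. It was present at 22 of the 35 used positions (62.9%), with 63.9% at the used positions of other genes and 35.2% at all bases of the 5 internal windows. Over all internal set2Δ counts, an A lay there for 62.1% in the 5 genes and 48.4% in other genes. The used positions were thus close to those of other genes in this letter, whereas the counts as a whole were not. For AAN1, the one gene on the minus strand, a pyrimidine before a purine was found at 95.5% of 22 used positions, 5′ window included, with positions moved by 42 bp, and at 18.2% as the file lists them. That shift was itself set on the bases before and at the start, so the share of AAN1 is a description.

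The starts did not keep to one reading frame. Of the 35 used positions, 19 were at the first base of a codon, 6 at the second base and 10 at the last base, or 54.3%, 17.1% and 28.6%. Among all 1874 pyrimidine–purine bases of these windows, 44.5%, 19.3% and 36.2% were at these codon positions.

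The first ATG downstream was in the frame of the protein for 7 of the 35 used positions (20.0%), against 34.3% of the used positions of other genes and 35.4% of all bases of the 5 internal windows. Over counts, 23.9% of the internal set2Δ ends of the 5 genes had an in-frame first ATG, against 32.7% in the other genes. The share was lowest in MTC4, at 7.58% and 7.85% in the 2 set2Δ libraries, and highest in HUL5, at 36.3% and 32.1%. It was 30.7% and 28.8% in AAN1, 26.3% and 24.5% in SWC3 and 25% and 22.4% in MRS2. Positions within a cluster share the same few ATGs, so the 35 positions are not independent of each other.

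In all 5 genes the first ATG from the most used position, or from both positions where 2 were tied, was out of frame. From base 1219 of MTC4 it lies at base 1241 and opens 34 codons, and the first in-frame ATG, at base 1279, is codon 427, which leaves the last 268 residues (38.6%) of the protein. From base 1390 of HUL5 the first ATG, at base 1391, opens 7 codons. The in-frame ATG at base 1399 is codon 467, with 444 residues (48.8%) after and including it. That ATG is the first one for RNAs that begin at base 1393 (0 and 2 counts in BY4741, 14 and 11 in set2Δ), and RNAs from base 1399 (0 and 0, then 7 and 5) begin with it.

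In AAN1 the ATG at base 924 opens 11 codons and the in-frame ATG at base 985 is codon 329, leaving 122 residues (27.1%). The A of the ATG at base 924 was itself a used position, with 1 and 1 counts against 16 and 16. Used positions 929, 943 and 969 of AAN1 lie past it and have the in-frame ATG first. In SWC3 the ATG at base 1187 opens 8 codons, and the in-frame ATG at base 1315 is codon 439, leaving 187 residues (29.9%). Its used positions 1210 and 1212 are followed first by the in-frame ATG. In MRS2 the ATG at base 1259 opens 22 codons and the in-frame ATG at base 1339 is codon 447, leaving 24 residues (5.11%). Peptides were not measured. From base 1390 of HUL5 the first ATG is 1 base away and from base 924 of AAN1 it is 0 bases away. Whether a ribosome uses an ATG so near the 5′ end was not tested.

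The 150 bp before each cluster were searched on both strands for letters found in many yeast promoters. TATAAA, a form of the TATA box, was found before the MRS2 cluster only, with its match 100 bases ahead of base 1176. It occurs in 10.7% of 43284 internal stretches of 150 bp and in 29.2% of the 4726 stretches of 150 bp before start codons. A run of 6 A or 6 T (AAAAAA or TTTTTT) was found before the MTC4 cluster only, 107 bases ahead of base 1219, with shares of 20.4% and 52.1%. TTACCCG, bound by the factor Reb1, was found before none of the 5 clusters, with shares of 0.34% and 3.11%. No 2 matches overlapped. Bases inside the clusters, ahead of the used positions, were not searched. The MTC4 cluster printed above itself holds a run of more than 6 A that begins at its used position 1155. A match is not evidence of a bound site, and its absence before a cluster says nothing of the bases nearer the starts.

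The pattern for which the genes were chosen is one of internal ends, so the 5′ window was tested. The genes were chosen on the same 4 libraries, with earlier results of these data known. The p-values below are thus not assured to be independent of the choice. For MTC4, BY4741 gave 12 and 8 counts and set2Δ 77 and 64, or 23.9 ± 3.67 and 59.5 ± 1.79 CPM (SD, n = 2). The log2 fold change was 1.11 (SE 0.32, edgeR adjusted p = 0.00163). For SWC3, BY4741 gave 21 and 11 counts and set2Δ 92 and 99, with a log2 fold change of 0.88 (SE 0.26, edgeR adjusted p = 0.00241). In both genes the 2 set2Δ libraries were above the 2 BY4741 libraries in CPM.

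For MRS2, BY4741 gave 12 and 11 counts and set2Δ 71 and 64, with a log2 fold change of 0.85 (SE 0.31, edgeR adjusted p = 0.0144). HUL5 had 12 and 8 against 64 and 53, a log2 fold change of 0.84 (SE 0.34, edgeR adjusted p = 0.0246). AAN1, with by far the most counts at its start, had 58 and 27 in BY4741 and 195 and 207 in set2Δ. Its levels were 128 and 71.9 CPM in BY4741 and 154 and 188 in set2Δ, with a log2 fold change of 0.54 (SE 0.17, edgeR adjusted p = 0.00464). Leaving out BY4741 replicate 1 gave 1.01 for AAN1, and leaving out BY4741 replicate 2 gave 0.24. With positions of 8 or more counts left out it was 1.40, and HUL5 (0.50) and MRS2 (0.23) were no longer called.

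All 5 genes were thus called higher at the annotated start, where 32.3% of 5039 genes were called higher and 30.2% lower and the median log2 fold change was 0.11. More positions lay at the excess near 16 counts in the deeper set2Δ libraries than in BY4741. The part of this in the calls of the 5 genes was not tested. Scaled to library totals, 2127 genes were higher and 1175 lower, and the 5 genes kept their calls. The calls depended on how the counts were treated. With DESeq2, MTC4 alone of the 5 passed, although the fold changes were close to those above, at 1.07 for MTC4, 0.85 for SWC3, 0.80 for HUL5, 0.79 for MRS2 and 0.52 for AAN1. With distinct positions counted in place of counts 0 of 5 passed in edgeR, 1 of 5 at an unadjusted p under 0.05, and the values ran from 0.30 (MRS2) to 0.87 (MTC4). Without BY4741 replicate 2 the calls of HUL5 (adjusted p = 0.145) and AAN1 (adjusted p = 0.34) were lost, and without BY4741 replicate 1 that of MRS2 (adjusted p = 0.148).

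The ratio of CPM at the start was 2.49 in MTC4, 2.15 in SWC3, 2.06 in HUL5, 2.05 in MRS2 and 1.71 in AAN1. In the 4 genes with an internal ratio it was larger than this one, and so was the lower bound of MRS2. The 2 ratios are of the same libraries and scale, and their difference was not tested, since the internal one chose the genes.

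Starts upstream of the genes were single bases too, and 30 of 30 used positions of the 5′ windows had a pyrimidine before a purine. AAN1 had 13 of them, SWC3 5 and the other genes 4 each. The used positions of MTC4 lay 33 to 43 bases before the start codon, those of HUL5 18 to 61 bases, those of MRS2 0 to 59 bases and those of AAN1 17 to 118 bases. Weaker starts lay outside these ranges.

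The leaders of SWC3 were very short. Its most used start, 4 bases before the start codon, was counted 12 and 4 times in BY4741 and 17 and 17 times in set2Δ, the latter at the excess near 16. Starts at 8, 14 and 35 bases before the codon followed, and base 10 of the gene itself was a used position, with 0 and 0 counts against 5 and 7. Inside SWC3, before its base 200, there were 2 and 0 counts in BY4741 and 20 and 21 in set2Δ. RNAs from base 10 lack the annotated ATG, and the next ATG, at base 104, is out of frame. The 30 bases around the start codons of SWC3 (chrI:132184-132213) and MRS2 (chrXV:944581-944610) are printed because both genes had used positions there, in capitals, with the ATG at printed bases 16 to 18. In MRS2 the A of the ATG was a used position, with 2 and 0 counts against 6 and 5.
SWC3: cGtagacAagtAagaatgcctgctGtcttg
MRS2: tcaatcaagcAtctcAtgaatcggcgtctc

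In AAN1, ends within 50 bases of the start codon were 6 of 58 and 2 of 27 upstream ends in BY4741 (10.3% and 7.41%) and 50 of 193 and 47 of 202 in set2Δ (25.9% and 23.3%). In MTC4 they were 10 of 11 and 8 of 8 in BY4741 and 47 of 73 and 44 of 61 in set2Δ. The 50-base limit was set after the positions had been seen, and no test was made. In set2Δ the far starts of AAN1 at 95, 92, 88 and 85 bases had 14 to 17 counts each, at the excess near 16, against 2 to 10 in the shallower BY4741 libraries, and the part of this in the shares was not tested. The median distance to the start codon was 92 and 88 bases in BY4741 and 85 and 85 bases in set2Δ for AAN1.

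**Figure D5:**
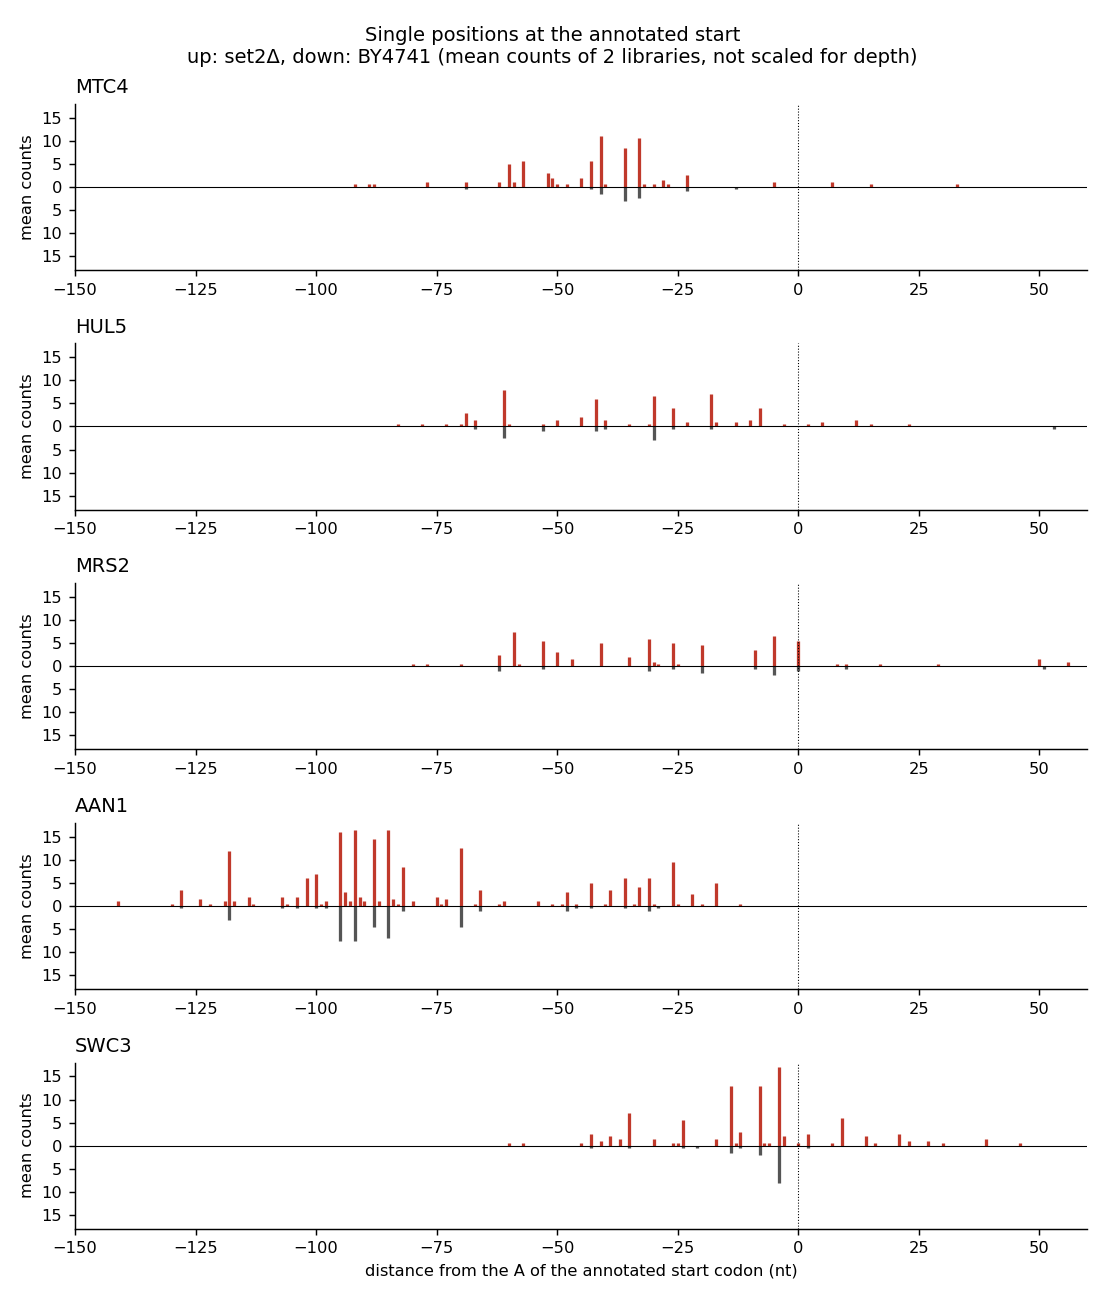
Mean counts of the 2 libraries per strain at single positions around the annotated start codon, with set2Δ upward and BY4741 downward, not scaled for depth. AAN1 has a group of starts 70 to 118 bases before the codon in both strains and a nearer group that is mostly set2Δ; the strongest SWC3 start is 4 bases before the codon.

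Antisense counts over the internal window were low. MRS2 had 1 and 0 in BY4741 and 8 and 7 in set2Δ, and HUL5 had 0 and 1 against 8 and 1. These were the 2 genes with enough counts for the fit, and neither passed (log2 fold change 1.41, SE 1.36, edgeR adjusted p = 0.458 for MRS2; 0.69, SE 1.45, edgeR adjusted p = 0.736 for HUL5), with 0 of 2 also at an unadjusted p under 0.05. The median log2 fold change over the 1480 genes tested was 1.21. Of these genes 16.9% were called higher, or 250 genes, and 66 lower. Scaled to library totals these counts were 808 and 30, with neither MRS2 nor HUL5 called. MTC4 had 0 and 0 against 5 and 2, SWC3 1 and 0 against 3 and 5, and AAN1 0 and 0 against 1 and 1. A change in antisense ends of these 5 genes was not detectable at this depth.

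Of the 10 genes next to the 5, 1 was called higher and 4 lower in their own 5′ windows, counts from which nothing is read beside 32.3% and 30.2% of all genes. CYS3, upstream of SWC3 on the same strand, was lower in set2Δ in its 5′ window (207 and 171 counts in BY4741, 319 and 256 in set2Δ, log2 fold change -1.10, SE 0.13, edgeR adjusted p = 8.2e-17). VMA4, upstream of MRS2 on the same strand, was also lower (log2 fold change -1.24, SE 0.12, edgeR adjusted p = 6.2e-23). Among the convergent genes, MDM10, beyond SWC3, was higher (log2 fold change 1.46, SE 0.42, edgeR adjusted p = 0.00145) and RCF3, beyond MTC4, was lower by 0.48 (SE 0.18, edgeR adjusted p = 0.0147). TRS20, which diverges from MTC4, was lower by 0.62 (SE 0.22, edgeR adjusted p = 0.0122). GPI10, YGL140C, ALA1, MUD2 and PSG1 did not pass. Scaled to library totals, the call of RCF3 was lost and ALA1, MUD2 and YGL140C were called higher, and those of RCF3 and TRS20 were lost in DESeq2. With distinct positions MDM10 (1.05), RCF3 and TRS20 were not called, while CYS3 and VMA4 stayed lower. CYS3 and VMA4 had many counts, and the part of the excess near 16 counts in their lower values was not tested.

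Among the partners of SWC3, 14 other genes of the SWR1 complex or its substrate were tested in the 5′ window, and 5 were higher and 3 lower in set2Δ, beside 32.3% and 30.2% of all genes. The catalytic subunit SWR1 rose from 12 and 5 counts to 87 and 73 (log2 fold change 1.53, SE 0.33, edgeR adjusted p = 1.5e-05), and VPS72, which binds H2A.Z, had a value of 1.31 (SE 0.25). SWC4, BDF1 and YAF9 were the other 3 that were higher. HTZ1, which encodes H2A.Z, was lower by 1.04 (SE 0.13) and SWC5 by 0.34 (SE 0.13), as was ACT1, with 606 and 560 counts in BY4741 against 749 and 601 in the deeper set2Δ libraries. ACT1 and HTZ1 had many counts, and the part of the excess near 16 counts in their lower values was not tested. In DESeq2 SWC4, YAF9 and SWC5 were not called. With distinct positions SWR1 and VPS72 alone were called higher, and ACT1 and HTZ1 stayed lower. Scaled to library totals, the call of SWC5 was lost and SWC7, VPS71 and RVB2 were called higher. The median over the 14 genes was 0.17, near the 0.11 of all genes.

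Of the other HECT ligases, UFD4 was higher (0.93, SE 0.22, edgeR adjusted p = 1.2e-04) and HUL4 and TOM1 did not pass. Of the transporters related to MRS2, all 4 that were tested, MFM1, ALR1, ALR2 and MNR2, were called higher at the start. Over all 5039 genes 32.3% were called higher and 30.2% lower, and nothing is read from lists as small as those of this paragraph. MNR2, a vacuolar member, rose from 17 and 13 counts to 146 and 110 (1.39, SE 0.25, edgeR adjusted p = 2.1e-07). ALR2 rested on 0 and 0 counts against 9 and 6. In DESeq2 MNR2 alone of these 4 passed, with fold changes of ALR1 (1.19) and MFM1 (1.12) close to the 1.26 and 1.15 of edgeR. With distinct positions ALR2 alone passed, and MNR2 had a value of 0.59, and UFD4 was not called either. Of the other MTC genes, grouped by the screen that named them and not by function, MTC5 was higher (1.35, SE 0.66, edgeR adjusted p = 0.0684) and MTC3 lower by 0.57 (SE 0.14) out of 6. MTC5 rested on 4 and 1 counts in BY4741 against 24 and 18, and was not called in DESeq2. With distinct positions neither MTC5 nor MTC3 was called. Scaled to library totals, MTC6 was called higher.

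By the distance over 8 values, the log2 of CPM plus 1 in both windows of the 4 libraries, MTC4 and HUL5 were each other's nearest gene of the 4726 (distance 0.714). This is a property of 2 genes chosen for the same pattern. The nearest gene to SWC3 was SAS4 (0.664), where internal counts were 11 and 6 against 236 and 223. The nearest to AAN1 was TAF7 (0.751), with 15 and 7 against 185 and 157. The nearest to MRS2 was SAL1 (1.59), which also had 0 internal counts in both BY4741 libraries and 29 and 18 in set2Δ. Genes with values like those of each of the 5 were thus present in the same libraries.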

How the data were processed

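Capped 5′ ends were sequenced from BY4741 and set2Δ, with 2 libraries each. The deposited files hold counts, made by the authors, of 5′ ends at every base of each strand, without normalization. According to the submitters' processing notes and the paper's methods, CASAVA 1.8.2 and Novoalign were used with the R64 (sacCer3) build, and all 17 sequence lengths match the reference used here. Reads that aligned more than once or were soft-clipped at the 5′ end had been dropped. Whether the random barcodes were used to collapse duplicates is not given in the sources used here. Minus-strand positions were moved 42 bp to the right, the shift at which bases before and at the start matched those of the plus strand.

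Genes and sequences were taken from the RefSeq R64 annotation and genome. Counts in the internal window (the gene without its first 200 bp), the 5′ window (250 bp upstream to just before base 200) and antisense to the internal window were fitted over all genes of at least 300 bp with at least 10 counts, with edgeR 4.0.16 (quasi-likelihood test, TMM, Benjamini-Hochberg adjustment, threshold 0.1) in R 4.3.3. Bases shared with another gene body or, for the 5′ window, with another gene's window on the strand were left out, as were 5′ windows of opposite genes from antisense counts. DESeq2 1.42.0, other scalings, filters and windows, distinct positions, a replicate block and leaving out each library were alternatives; leaving out positions of 8 or more counts and scaling the internal window by the factors of the 5′ window were added after seeing the data. The fits were also run on counts simulated with their own fitted spread, which cannot show whether that spread is right. The 5 genes and the partner lists were chosen with earlier results of these data known. The 5 genes are described in full, with their neighbours, partners and nearest gene by values. The labels do not say that the 2 libraries of a strain came from separate cultures, so the spread between them may be technical. At the counts of the 5 genes, the edgeR p-values of the 5′ window hold mostly counting error and little of that spread. The SEs of the 5 genes ran from 0.17 (AAN1) to 0.34 (HUL5) in edgeR. In DESeq2 they were larger, from 0.30 (AAN1) to 0.53 (HUL5). Replicates differed by more than sampling noise (chi-square per degree of freedom 1.34 in BY4741 and 1.16 in set2Δ over 4443 and 4991 genes).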

Additional observations from a re-analysis of the deposited data

How the results depend on the processing

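For the 5′ window, the number of the 5 genes called higher was 1 with DESeq2, 0 with distinct positions counted, and 3 with positions of 8 or more counts left out, an alternative chosen after seeing the data; leaving out 1 library gave 3 to 5, and with the replicate block 5. Of all genes, DESeq2 called 688 higher, distinct positions 389 higher and 660 lower, and leaving out positions of 8 or more counts 899 higher; leaving out 1 library gave 1139 to 1320 higher and 1302 to 1398 lower. With the replicate block 1499 were higher and 1438 lower, and 105 of 1480 were higher antisense. The replicate numbers did not pair the libraries (r = -0.06 over 5039 genes), and the block changed no call of the 5 genes in the 5′ window. The antisense value of HUL5 was -0.39 without BY4741 replicate 1, and no antisense call was made under the alternatives in which the genes were tested. The internal calls over all genes, read for nothing here, fell to 0 of 4431 in edgeR without set2Δ replicate 2, where 745 were higher at an unadjusted p under 0.05. The difference in internal share was 29.8 points with distinct positions and 35.7 to 38.6 points under the other alternatives, and leaving out 1 library gave 35.7 to 38.5. Used positions were 55 at a minimum of 3 counts and 23 at 8, and the pyrimidine–purine share was 85.5% and 95.7% there and 75.1% weighted by counts. The causes were not tested. Depth limits the BY4741 side most, with 0 to 17 internal counts per gene.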
